A study of Mus musculus with 2 samples.

Results

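The 10 differentiation keratin genes of the ocular surface were described in epithelial cells from the cornea and limbal rim of the mouse: Krt12, Krt5, Krt14, Krt4, Krt13, Krt19, Krt8, Krt18, Krt7 and Krt78. They were taken by gene symbol from count matrices of 27998 features, in which 51 genes carried a keratin symbol, and all 10 were present once. The tissue came from a Beclin1 +/- female mouse and from a WT littermate, both on the C57BL/6 strain background and 28 days of age. Each genotype was represented by 1 mouse and 1 droplet library made with the 10x Genomics protocol, so differences between the genotypes have no replicate check, and genotype, animal and library cannot be told apart. Per the labels, lens, retina, iris and trabecular tissue and most of the conjunctiva were removed, and the corneal rims were digested with collagenase and then trypsin. Becn1 encodes beclin 1, part of the kinase complex at the start of autophagy. Which part of the gene is missing is not given in the labels.

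Keratins are the intermediate filament proteins of epithelial cells, and a filament forms only from pairs of an acidic type I chain and a basic type II chain. Each epithelium uses characteristic pairs. Krt5 (type II) with Krt14 (type I) is the pair of basal cells of stratified epithelia, and Krt12 (type I) is the keratin of the corneal epithelium, where it is paired with Krt3 in humans. Krt4 (type II) with Krt13 (type I) belongs to mucosal epithelia such as the conjunctiva, and Krt8 (type II) with Krt18 (type I) to simple epithelia. Krt7 (type II) and Krt19 (type I) are found in simple and ductal epithelia and in the conjunctiva. Krt78 is a type II keratin of the differentiated layers of stratified epithelia.

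The libraries held 5155 barcodes with 74363359 unique molecular identifiers (UMIs, each counted transcript) in the heterozygote and 2513 barcodes with 54913980 UMIs in the wild type, with 15 barcodes in common. Levels are given as CPM, the UMIs of a gene in all cells of a class over all UMIs of those cells, times 1000000. Because 1 tag is counted per transcript end, no correction for length was made, and levels are compared between cells and not between genes. Epithelial cells were the cells of 15 epithelial clusters with Dcn, a stromal proteoglycan gene, under 2000 CPM, and numbered 3483 in the heterozygote and 1864 in the wild-type library. Cells of the heterozygote library were shallower, with a median of 13668 UMIs per epithelial cell against 19286 UMIs in the wild type. Cells between 1000 and 2000 CPM of Dcn, just inside the limit, numbered 11 in the heterozygote and 16 in the wild-type library and had 23043 and 18119 CPM of Krt12. Those between 2000 and 4000 CPM, just outside, numbered 8 in the heterozygote and 5 in the wild-type library and had 14098 and 18885 CPM. Becn1 itself was counted at 44.8 CPM in the heterozygote and 44.3 CPM in the wild-type epithelium, a log2 ratio of 0.02 (-0.07 to 0.10). A 3′ tag can be read from both alleles, so that level does not check the genotype.

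Clusters were built without any keratin gene and named from other markers. Limbal basal-like cells (344 in the heterozygote and 194 in the wild-type library) were the 2 clusters with high Gpha2, Ifitm3 and Cd63. All 3 were also counted in stromal cells. With both libraries together Gpha2 had 1824 CPM in limbal, 106 CPM in Aldh3a1-high, 541 CPM in stromal and 1594.5 CPM in endothelial cells. The fourth gene of that marker list, Lrig1, had 7.22 CPM in limbal and 19.7 CPM in Aldh3a1-high cells of both libraries together. Conjunctival-like cells (138 in the heterozygote and 62 in the wild-type library) were 1 cluster with high Muc1, Foxa1 and Cldn3, in which the goblet cell genes Muc5ac, Muc5b, Tff1 and Spdef were at 0. Agr2, the fifth goblet cell gene, had 143 CPM in them, more than in the limbal (46.7 CPM), Aldh3a1-high (4.14 CPM) and superficial-like cells (1.10 CPM). Of the conjunctival markers Wfdc2 was higher in limbal cells (635 against 306 CPM), and Muc1 (112 against 92.3 CPM) and Muc4 (1392 against 605 CPM) in superficial-like cells. Superficial-like cells (464 in the heterozygote and 161 in the wild-type library) were the 2 clusters with high Psca, Upk1b and Cnfn. The 10 remaining epithelial clusters (2537 and 1447 cells) are called Aldh3a1-high after the corneal crystallin enzyme, which reached at least 5000 CPM in each of them. They include cycling cells and clusters led by the differentiation genes Sprr1a and Ly6g6c. Other genes that vary with keratins stayed in the clustering, so differences between the classes are descriptions and carry no test.

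The type I genes Krt12, Krt13, Krt14 and Krt19 lie on chromosome 11 and the type II genes Krt7, Krt5, Krt4, Krt78 and Krt8 on chromosome 15 (mm10, GENCODE vM21). Krt18 is the exception, a type I gene at the end of the chromosome 15 cluster, 23697 bases from Krt8. Krt12 spans chr11:99415666-99422259 and Krt14 chr11:100203162-100207548, both on the minus strand. Krt5 spans chr15:101707070-101712898 and Krt8 chr15:101996698-102004482 on the minus strand, and Krt18 chr15:102028180-102032027 on the plus strand. RefSeq promoter windows of the GRCm38.p6 build, 250 bases before to 50 bases after a start, were held for 8 of the 10 genes. The windows of 4 genes are shown, Krt12 and Krt5 because both were higher in Aldh3a1-high than in limbal basal-like cells, and Krt8 and Krt18 because these neighbours and textbook partners were highest in different classes. Capitals mark the letters CACCC, searched as a binding string of Klf factors, and TATAAA, the TATA box, each on either strand. The AP-1 string TGANTCA and the GC box GGGCGG were searched too and were in none of the 4.
Krt12 (chr11:99422210-99422509, strand -): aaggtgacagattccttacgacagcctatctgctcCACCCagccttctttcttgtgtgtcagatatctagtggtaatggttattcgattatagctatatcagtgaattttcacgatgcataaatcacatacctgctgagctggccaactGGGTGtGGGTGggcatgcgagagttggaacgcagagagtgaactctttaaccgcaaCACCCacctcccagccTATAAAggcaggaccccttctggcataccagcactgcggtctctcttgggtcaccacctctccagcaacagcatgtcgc
Krt5 (chr15:101712856-101713155, strand -): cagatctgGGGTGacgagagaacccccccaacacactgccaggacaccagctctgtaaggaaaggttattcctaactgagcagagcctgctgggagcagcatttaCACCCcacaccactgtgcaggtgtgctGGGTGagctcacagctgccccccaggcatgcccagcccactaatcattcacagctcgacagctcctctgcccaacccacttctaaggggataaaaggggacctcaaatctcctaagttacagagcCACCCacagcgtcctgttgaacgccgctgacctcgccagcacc
Krt8 (chr15:102004293-102004592, strand -): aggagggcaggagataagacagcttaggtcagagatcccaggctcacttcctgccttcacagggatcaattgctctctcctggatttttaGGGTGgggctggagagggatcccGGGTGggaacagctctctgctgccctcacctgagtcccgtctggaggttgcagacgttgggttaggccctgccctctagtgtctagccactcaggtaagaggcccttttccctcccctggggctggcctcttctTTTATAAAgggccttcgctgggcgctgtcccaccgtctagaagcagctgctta
Krt18 (chr15:102027966-102028265, strand +): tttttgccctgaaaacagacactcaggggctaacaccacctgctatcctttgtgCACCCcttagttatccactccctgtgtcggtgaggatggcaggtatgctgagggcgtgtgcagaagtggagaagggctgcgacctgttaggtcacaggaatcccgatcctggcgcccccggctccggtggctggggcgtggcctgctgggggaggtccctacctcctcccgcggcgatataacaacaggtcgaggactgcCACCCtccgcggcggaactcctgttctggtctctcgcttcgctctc
CACCC was present in 4 places in the Krt12 window, 4 in the Krt5 window, 2 in the Krt8 window and 2 in the Krt18 window, and in 57.5% of the 32807 windows of 300 bases of all genes. TATAAA was in the windows of Krt12 and Krt8, overlapping on both strands in Krt8, and in 13.6% of all windows. The AP-1 string was in 7.82% and the GC box in 35.6% of all windows. These letters describe the windows and do not show binding.

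Keratin UMIs in stromal cells, taken here as a background of free RNA, set the floor for the abundant keratins. Their source was not tested. Stromal keratocytes are not epithelial and carry no known Krt12, yet Krt12 was counted in 99.8% of stromal cells in the heterozygote and 100% in the wild-type library, with a median of 8 UMIs per cell in both. Its stromal level was 1242 CPM in heterozygote and 835 CPM in wild-type cells. Median depth of these cells was 8244 UMIs in the heterozygote and 11937 UMIs in the wild-type library. Krt5 had 238 CPM in heterozygote and 189 CPM in wild-type cells of the stroma, and Krt14 had 209.6 CPM in heterozygote and 172 CPM in wild-type cells. The other 7 members were between 1.36 and 27.01 CPM in the heterozygote and between 1.12 and 18.3 CPM in the wild-type stroma. A cell is therefore called positive below when it held more UMIs of a gene than the 95th percentile of the stromal cells of its library, which was 17 UMIs in the heterozygote and 16 in the wild type for Krt12, 4 and 5 for Krt5, 4 in both for Krt14, 1 in both for Krt4, Krt13 and Krt19, and 0 for Krt8, Krt18, Krt7 and Krt78. This rule was chosen after the stromal counts had been seen, and since it does not scale with depth, shares by it are not compared between the libraries.

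Krt12 had the most UMIs of the 10 keratins in Aldh3a1-high and superficial-like cells. Limbal basal-like cells had 5451 CPM in heterozygote and 3591 CPM in wild-type cells, and the median limbal cell held 39 UMIs in the heterozygote and 35.5 UMIs in the wild type. Superficial-like cells had 16700 CPM in heterozygote and 17969 CPM in wild-type cells. Aldh3a1-high cells had 25241 CPM (95% interval 25193 to 25290) in heterozygote and 25032 CPM (95% interval 24980 to 25084) in wild-type cells, with medians of 299 and 457 UMIs, so the limbal level was lower by 4.63 times in the heterozygote and 6.97 times in the wild-type library. Above the stromal background were 68.3% of heterozygote and 60.3% of wild-type limbal cells, and 99.3% of heterozygote and 99.2% of wild-type Aldh3a1-high cells.

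The limbal clusters differed from each other. Cluster 8, led by the limbal gene Gpha2 with Slpi, held Krt12 at 6563 CPM in heterozygote and 5612 CPM in wild-type cells. Cluster 18, led by Wfdc18 and Calcb, held 2861 CPM in heterozygote and 1248 CPM in wild-type cells, the lowest of the 15 epithelial clusters in both libraries. At the limits used for naming, cluster 18 passed 3 limbal and 2 conjunctival markers and cluster 8 passed 3 and 1. The superficial-like clusters 10 and 11 also passed 2 conjunctival markers each. With both libraries together Agr2 had 100.32 CPM in cluster 18, 14.955 CPM in cluster 8 and 143.27 CPM in the conjunctival-like cluster 16. Whether the Krt4, Krt19, Krt7 and Krt8 of cluster 18, given below, belong to limbal cells was not tested. Among Aldh3a1-high clusters Krt12 was lowest in the cycling cluster 3, led by Ube2c, at 14225 CPM in heterozygote and 14333 CPM in wild-type cells, and in cluster 0, led by Mmp10 and Mmp13, at 16130 CPM in heterozygote and 18342 CPM in wild-type cells. It was highest in cluster 7, led by Sprr1a and Ly6g6c, at 35137 CPM in heterozygote and 36007 CPM in wild-type cells, and in cluster 15, led by Pax6, at 35645 CPM in heterozygote and 34776 CPM in wild-type cells. The 2 highest changed places between the libraries.

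In conjunctival-like cells Krt12 was unevenly spread. Its pooled level was 3795 CPM in heterozygote and 1440.2 CPM in wild-type cells, but the median cell had 22.5 UMIs in the heterozygote and 15 UMIs in the wild-type library, and the cell with most had 629 and 1056 UMIs. The 10% of cells with most Krt12 held 47.3% of its UMIs in the heterozygote and 61.9% in the wild type. Of this class 72 heterozygote and 27 wild-type cells were positive for both Krt12 and Krt4, 61 and 35 for Krt4 alone, and 5 and 0 for Krt12 alone. Nearly every cell of the class was therefore positive for Krt4, and a part of them for Krt12 as well.

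Krt5 and Krt14, the basal pair, differed between limbal basal-like and Aldh3a1-high cells in opposite directions. Krt14 had 8126 CPM (95% interval 8039 to 8214) in heterozygote and 8321 CPM (95% interval 8222 to 8421) in wild-type cells of the limbal class, against 3109 CPM in heterozygote and 3237 CPM in wild-type cells of the Aldh3a1-high class. The log2 ratio of limbal over Aldh3a1-high cells was 1.39 (1.37 to 1.40) in the heterozygote and 1.36 (1.34 to 1.38) in the wild-type library. Krt5 had 2559 CPM in heterozygote and 2615 CPM in wild-type cells of the limbal class, against 5129.7 CPM in heterozygote and 5866 CPM in wild-type cells of the Aldh3a1-high class, and its log2 ratio was -1.003 (-1.03 to -0.98) in the heterozygote and -1.17 (-1.20 to -1.13) in the wild-type library.

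Within Aldh3a1-high cells the pair also ran against each other. In cluster 7, led by Sprr1a and Ly6g6c, Krt14 had 746 CPM in heterozygote and 472 CPM in wild-type cells and Krt5 had 6936 CPM in heterozygote and 7799 CPM in wild-type cells. In the cycling cluster 3 Krt14 had 5487 CPM in heterozygote and 6517 CPM in wild-type cells and Krt5 had 3278 CPM in heterozygote and 3465 CPM in wild-type cells. Krt5 thus followed Krt12 rather than Krt14 in these 2 clusters. Superficial-like cells held Krt14 at 384 CPM in heterozygote and 153 CPM in wild-type cells, with 2 UMIs in the median cell of both libraries. Krt5 in superficial-like cells had 2366 CPM in heterozygote and 2293 CPM in wild-type cells, of which cluster 11, led by Asprv1 and Nccrp1, had 4406 CPM in heterozygote and 4833 CPM in wild-type cells and cluster 10, led by Lce3a, had 444 CPM in heterozygote and 473 CPM in wild-type cells. In conjunctival-like cells Krt5 had 5450.5 CPM (95% interval 5366 to 5536) in heterozygote and 4745 CPM (95% interval 4655 to 4836) in wild-type cells, above the Aldh3a1-high level in the heterozygote and below it in the wild type. Krt14 shares near-identical stretches with Krt16 and Krt17, so the counts of these 3 genes are uncertain against each other.

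Of the 10 keratins, 6 were at least 1.25 times higher in limbal basal-like than in Aldh3a1-high cells of both libraries and 4 at least 1.25 times lower. The same rule gave 19.7% higher and 24.1% lower among 4225 genes that averaged 20 CPM or more. Krt14, Krt4, Krt19, Krt8, Krt18 and Krt7 were higher, and Krt12, Krt5, Krt13 and Krt78 were lower, of which Krt78 was under the 20 CPM minimum. Krt13 was lower against the pooled class only. Limbal cells had 101 CPM in heterozygote and 156 CPM in wild-type cells. Aldh3a1-high cluster 5 had 19.3 CPM in heterozygote and 12.2 CPM in wild-type cells, and cluster 7 had 715 CPM and 1170 CPM. The genes had been chosen for known differences between such cells, so these counts are a description. Krt4, Krt19, Krt8 and Krt7 were higher in cluster 18, which also passed conjunctival markers, than in cluster 8 in both libraries. With coarser clusters (Leiden resolution 0.5) only Krt14, Krt18 and Krt7 stayed higher, and Krt19 had log2 ratios of -2.91 in the heterozygote and -1.41 in the wild type.

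**Figure D1:**
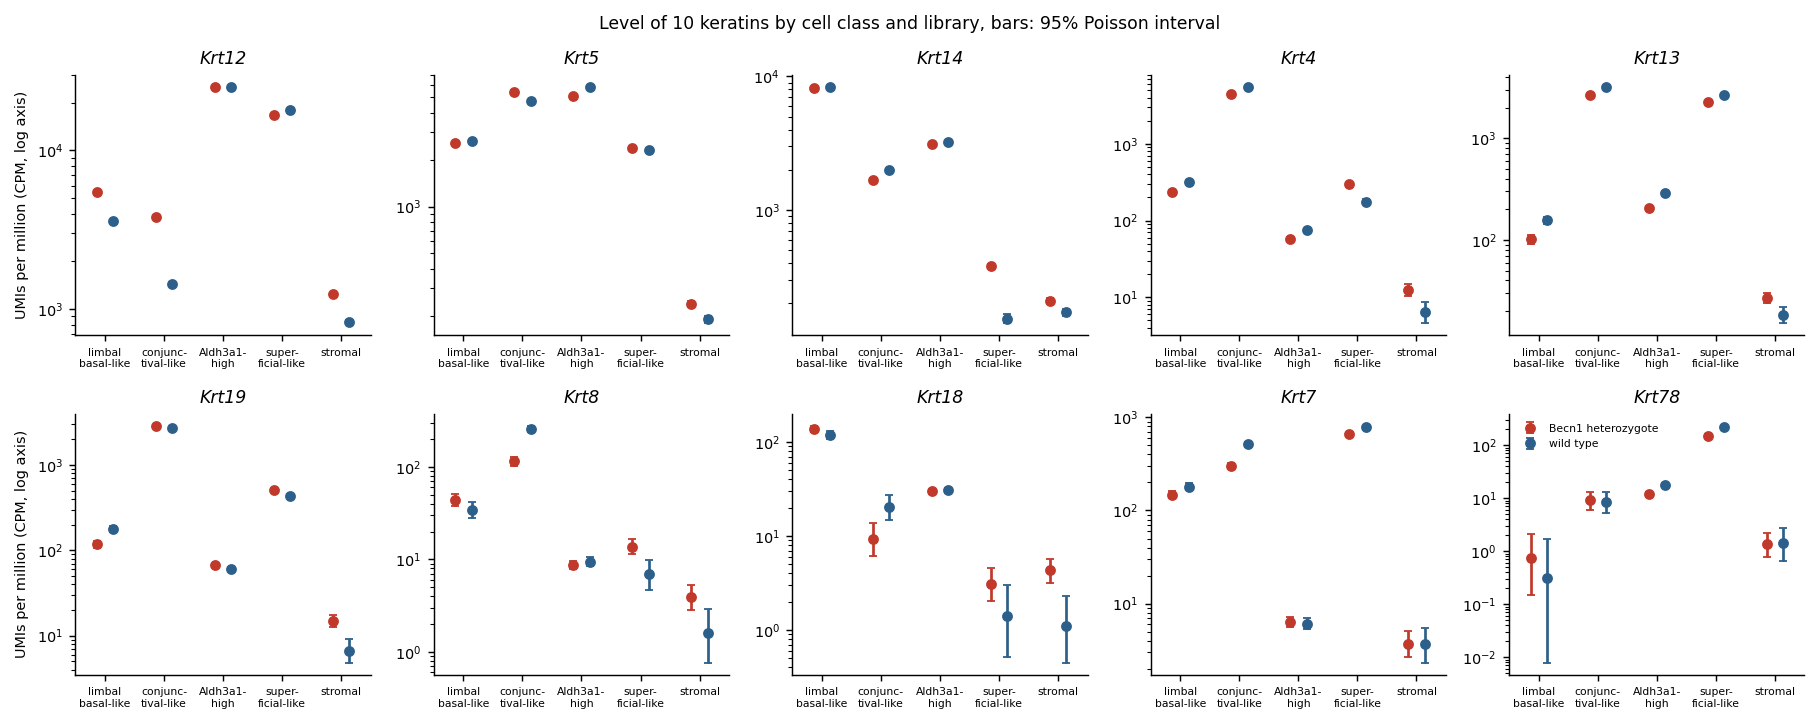
Pooled level of each keratin (CPM, log axis, its range set per gene) in limbal basal-like, conjunctival-like, Aldh3a1-high, superficial-like and stromal cells, with the heterozygote library in red left of the wild-type library in blue and bars for the 95% Poisson interval of counting error. Krt12 stands highest in Aldh3a1-high cells (25241 CPM heterozygote, 25032 CPM wild type), Krt14 and Krt18 in limbal basal-like cells, Krt4, Krt13, Krt19 and Krt8 in conjunctival-like cells and Krt7 and Krt78 in superficial-like cells, in both libraries.

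Krt4, Krt13 and Krt19, keratins of mucosal epithelia, were highest in conjunctival-like cells. Krt4 had 4521 CPM (95% interval 4444 to 4599.7) in heterozygote and 5532 CPM (95% interval 5435 to 5630.3) in wild-type cells of that class, against 57.7 CPM in heterozygote and 74.6 CPM in wild-type cells of the Aldh3a1-high class. Limbal cells held 239 CPM in heterozygote and 315 CPM in wild-type cells, and superficial-like cells held 298 CPM in heterozygote and 176 CPM in wild-type cells. In the limbal class Krt4 was higher in cluster 18, with 469 CPM in heterozygote and 519 CPM in wild-type cells, than in cluster 8, with 139.8 CPM in heterozygote and 138 CPM in wild-type cells. The median cell of the limbal, Aldh3a1-high and superficial-like classes held 0 or 1 UMI of Krt4 in both libraries, so its level there rested on a part of the cells.

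Krt13, the type I partner of Krt4, was high in superficial-like cells as well. Conjunctival-like cells had 2688 CPM in heterozygote and 3166 CPM in wild-type cells and superficial-like cells had 2281 CPM in heterozygote and 2678 CPM in wild-type cells, against 204 CPM in heterozygote and 292 CPM in wild-type cells of the Aldh3a1-high class. Positive for Krt13 were 92.5% of heterozygote and 93.8% of wild-type superficial-like cells, and for Krt4 22.2% of heterozygote and 14.9% of wild-type superficial-like cells. Most superficial-like cells therefore held Krt13 above the background and not its partner. By cluster Krt13 had 20.05 CPM in heterozygote and 15.1 CPM in wild-type cells in cluster 0, 174 CPM in heterozygote and 227 CPM in wild-type cells in the Sprr1a and Lce3c cluster 2, 715 CPM in heterozygote and 1170.3 CPM in wild-type cells in cluster 7 and 2340.5 CPM in heterozygote and 2993 CPM in wild-type cells in the superficial-like cluster 11.

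Krt19, a type I keratin without a fixed partner, had 2836 CPM in heterozygote and 2714 CPM in wild-type cells of the conjunctival-like class and 513 CPM in heterozygote and 439 CPM in wild-type cells of the superficial-like class, against 67.6 CPM in heterozygote and 61.1 CPM in wild-type cells of the Aldh3a1-high class. The limbal class held 118 CPM in heterozygote and 179 CPM in wild-type cells, from clusters on either side of the Aldh3a1-high level. Cluster 18 had 339.7 CPM in heterozygote and 342 CPM in wild-type cells, and cluster 8 had 23.3 CPM in heterozygote and 38.7 CPM in wild-type cells. Against the pooled Aldh3a1-high class the limbal excess of Krt19 was thus that of cluster 18, the cluster with least Krt12. Among the Aldh3a1-high clusters Krt19 had 12.4 CPM in heterozygote and 5.71 CPM in wild-type cells of cluster 0, below cluster 8. Cluster 7 had 220 CPM in heterozygote and 175 CPM in wild-type cells, above it.

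Krt8, Krt18 and Krt7 are keratins of simple epithelia, and each was highest in a different class. Krt8 had 116 CPM (95% interval 103 to 129) in heterozygote and 257 CPM (95% interval 237 to 279) in wild-type cells of the conjunctival-like class, against 8.69 CPM in heterozygote and 9.49 CPM in wild-type cells of the Aldh3a1-high class. Limbal cells had 44.2 CPM in heterozygote and 34.4 CPM in wild-type cells. Cluster 18 of that class had 93.8 CPM in heterozygote and 67.6 CPM in wild-type cells. Cluster 8 had 22.9 CPM in heterozygote and 5.77 CPM in wild-type cells, the latter on 10 UMIs and below the Aldh3a1-high level. Krt18 had 138 CPM (95% interval 127 to 149.5) in heterozygote and 119.6 CPM (95% interval 108 to 132) in wild-type cells of the limbal class. It had 9.37 CPM in heterozygote and 20.2 CPM in wild-type cells of the conjunctival-like and 3.08 CPM in heterozygote and 1.40 CPM in wild-type cells of the superficial-like class, against 29.98 CPM in heterozygote and 30.6 CPM in wild-type cells of the Aldh3a1-high class. Among Aldh3a1-high clusters Krt18 had 74.99 CPM in heterozygote and 76.2 CPM in wild-type cells in cluster 0 and 65.8 CPM in heterozygote and 74.6 CPM in wild-type cells in the cycling cluster 3, the highest levels, and 1.71 CPM in heterozygote and 1.32 CPM in wild-type cells in cluster 7, the lowest.

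In single cells Krt8 and Krt18 were each counted in a minority, and some cells held both. A Krt8 UMI was present in 10.4% of heterozygote and 13.7% of wild-type epithelial cells and a Krt18 UMI in 23.7% and 32.9%. Both were present in 114 heterozygote and 106 wild-type cells. Of the cells with Krt18, 13.8% in the heterozygote and 17.3% in the wild-type library also had Krt8, and of the cells with Krt8, 31.6% and 41.6% also had Krt18, so each was counted somewhat more often beside the other than in the epithelium as a whole. In limbal basal-like cells 9.88% of heterozygote and 15.5% of wild-type cells held both, where 14.2% and 20.1% held Krt8. Of the cells with Krt18, 94.9% in the heterozygote and 98.4% in the wild type were positive for Krt14. Cells with 3 or more Krt8 UMIs, a limit chosen after the values were seen, numbered 93 in the heterozygote and 96 in the wild-type library, 2.67% and 5.15% of the epithelium. They held 7.86% and 7.98% of the Krt18 UMIs. Of them 35 heterozygote and 38 wild-type cells were Aldh3a1-high, 28 and 43 conjunctival-like, 17 and 12 limbal basal-like and 13 and 3 superficial-like. Cells with 3 or more Krt18 UMIs numbered 235 in the heterozygote and 187 in the wild-type library. Of these, 82 heterozygote and 55 wild-type cells were limbal basal-like and 149 and 126 Aldh3a1-high. Both genes are sparse, and a cell with no UMI may still express the gene.

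Krt7 had 669 CPM in heterozygote and 786 CPM in wild-type cells of the superficial-like class and 301 CPM in heterozygote and 514 CPM in wild-type cells of the conjunctival-like class. Limbal cells held 148 CPM in heterozygote and 180.0 CPM in wild-type cells, against 6.34 CPM in heterozygote and 6.08 CPM in wild-type cells of the Aldh3a1-high class, where it was near the stromal level of 3.70 CPM in the heterozygote and 3.66 CPM in the wild-type library. In the limbal class cluster 18 had 379 CPM in heterozygote and 357 CPM in wild-type cells and cluster 8 had 49.3 CPM in heterozygote and 27.7 CPM in wild-type cells. In the superficial-like class the Lce3a cluster 10 had 1152 CPM in heterozygote and 1263 CPM in wild-type cells and cluster 11 had 157 CPM in heterozygote and 121 CPM in wild-type cells.

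Krt78, of the upper layers, had 150.0 CPM (95% interval 142 to 158) in heterozygote and 218 CPM (95% interval 204 to 232) in wild-type cells of the superficial-like class, against 12.04 CPM in heterozygote and 17.7 CPM in wild-type cells of the Aldh3a1-high class. Limbal basal-like cells held 3 UMIs of it in the heterozygote and 1 UMI in the wild-type library. At least 1 Krt78 UMI was counted in 67.7% of heterozygote and 80.1% of wild-type superficial-like cells. Cluster 11 had 209.6 CPM in heterozygote and 362 CPM in wild-type cells, cluster 10 had 93.8 CPM in heterozygote and 115 CPM in wild-type cells and cluster 7 of the Aldh3a1-high class had 46.5 CPM in heterozygote and 77.8 CPM in wild-type cells. Krt78 was thus highest in cluster 11 and Krt7 in cluster 10, in both libraries.

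Within superficial-like cells the corneal keratin was lower where Lce3a, a late cornified envelope gene, was counted. Krt12 had 20709 CPM in heterozygote and 22332 CPM in wild-type cells under 100 CPM of Lce3a, and 8320.1 CPM in heterozygote and 12268 CPM in wild-type cells at 10000 CPM of Lce3a and over. The cells at high Lce3a numbered 53 in the heterozygote and 21 in the wild-type library. Krt5 had 3452 CPM in heterozygote and 3725 CPM in wild-type cells at low and 383 CPM in heterozygote and 338 CPM in wild-type cells at high Lce3a. Krt78 likewise had 184 CPM in heterozygote and 275 CPM in wild-type cells at low and 25.7 CPM in heterozygote and 73.2 CPM in wild-type cells at high Lce3a. Krt7 went the other way, with 509 CPM in heterozygote and 650.4 CPM in wild-type cells at low and 989 CPM in heterozygote and 915 CPM in wild-type cells at high Lce3a. Krt13 had 2532 CPM in heterozygote and 3055 CPM in wild-type cells at low and 1743 CPM in heterozygote and 1688 CPM in wild-type cells at high Lce3a.

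Of the 10 keratins, 5 were at least 1.25 times higher in superficial-like than in Aldh3a1-high cells of both libraries and 4 lower, against 21.4% higher and 60.9% lower of 3791 genes. Krt4, Krt13, Krt19, Krt7 and Krt78 were higher, and Krt12, Krt5, Krt14 and Krt18 lower, with Krt18 under the 20 CPM minimum. Krt8, also under it, had 0.67 in the heterozygote and -0.42 in the wild type. The median gene was itself lower in superficial-like cells, with a log2 ratio of -0.79. TMM scaling (trimmed mean of M-values) adds 0.97 in the heterozygote and 1.11 in the wild-type library to every ratio. The log2 ratio of Krt12 was -0.60 in the heterozygote and -0.48 in the wild type in CPM, and turned to 0.37 and 0.64 with TMM scaling. In the conjunctival-like class 5 keratins were higher (Krt4, Krt13, Krt19, Krt8 and Krt7) and 4 lower (Krt12, Krt14, Krt18 and Krt78), against 21.8% and 25.0% of 4238 genes, with Krt78 under the minimum.

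Epithelial cells were also grouped by their own Krt12 level, with no regard to cluster. Krt5 had 3413 CPM in heterozygote and 3339 CPM in wild-type cells under 2000 CPM of Krt12, was lowest from 5000 to 10000 CPM, with 2237 CPM in heterozygote and 2473 CPM in wild-type cells, and had 8112 CPM in heterozygote and 8670.5 CPM in wild-type cells at 40000 CPM and over. Krt14 was highest from 2000 to 5000 CPM of Krt12, with 4597 CPM in heterozygote and 6803 CPM in wild-type cells, between 4402 CPM in heterozygote and 4662 CPM in wild-type cells under 2000 CPM and 1262 CPM in heterozygote and 1022 CPM in wild-type cells at 40000 CPM and over. Neither gene changed in a single direction over the 6 groups. Krt4 had 2909 CPM in heterozygote and 2789 CPM in wild-type cells under 2000 CPM of Krt12, and 46.9 CPM in heterozygote and 53.4 CPM in wild-type cells at 40000 CPM and over. Under 2000 CPM of Krt12, 47.3% of heterozygote and 51.4% of wild-type cells were limbal basal-like, and 32.5% and 29.4% conjunctival-like. Krt7 had 631 CPM in heterozygote and 609.5 CPM in wild-type cells under 2000 CPM of Krt12, and 6.93 CPM in heterozygote and 3.08 CPM in wild-type cells at 40000 CPM and over. Krt18 had 61.95 CPM in heterozygote and 60.8 CPM in wild-type cells under 2000 CPM of Krt12, and 5.51 CPM in heterozygote and 5.69 CPM in wild-type cells at 40000 CPM and over. As CPM are shares of all UMIs, a higher Krt12 share leaves a smaller share for other genes.

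**Figure D2:**
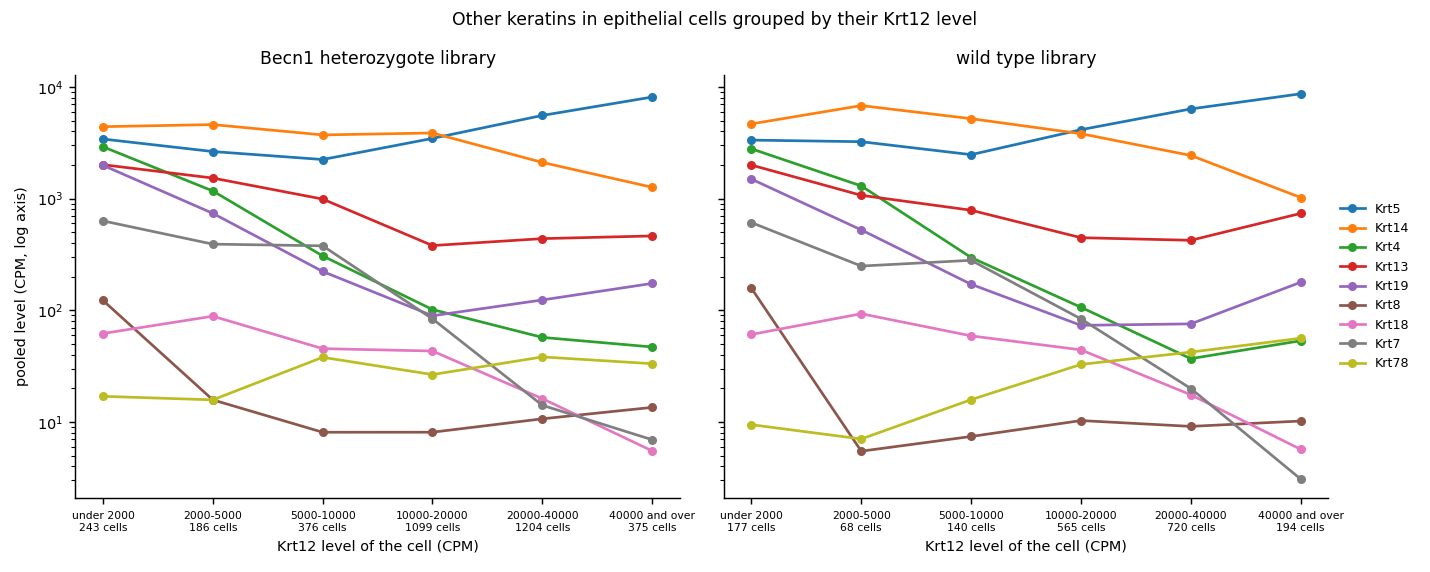
Pooled level of 9 keratins (CPM, log axis) in epithelial cells grouped by the Krt12 level of the cell (CPM, from low at the left to high at the right), heterozygote library in the left and wild-type library in the right panel, with the number of cells under each group. Krt5 is highest at the right (8112 CPM heterozygote, 8670.5 CPM wild type), while Krt14, Krt4, Krt7 and Krt18 are lower at the right end than at the left end in both libraries.

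Positive for Krt12 were 93.9% of heterozygote and 92.9% of wild-type epithelial cells. Cells positive for both Krt12 and Krt4 made up 11.1% of the heterozygote (95% exact binomial interval 10.1 to 12.2) and 10.9% of the wild-type epithelium (9.51 to 12.4). Among Krt4-positive cells 75.3% in the heterozygote and 67.2% in the wild type were also positive for Krt12. Among Krt13-positive cells the share was 89.9% in the heterozygote and 86.6% in the wild type, and among Krt7-positive cells 77.3% and 68.7%. Each share was below the 93.9% of heterozygote and 92.9% of wild-type cells of the whole epithelium. Krt12 was thus less often positive beside these keratins than in all epithelial cells, although many droplets held both. Doublets were removed by score, and droplets of 2 cells that scored low may remain among them.

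With every cell thinned to 5000 UMIs, so that depth was equal, 16.7% of heterozygote (15.4 to 17.9) and 14.3% of wild-type epithelial cells (12.7 to 15.9) held at least 1 UMI of both Krt12 and Krt4. Among stromal cells 5.91% in the heterozygote and 2.37% in the wild type did. Without thinning the epithelial shares were 27.5% in the heterozygote and 25.97% in the wild type. Krt13 was detected in 34.4% of heterozygote and 29.9% of wild-type epithelial cells after thinning, against 12.2% and 8.10% of stromal cells. The stromal shares were higher in the heterozygote for both measures, and their part in the difference between the epithelia was not tested. No cell was left out by thinning, since the shallowest barcode had 5430 UMIs in the heterozygote and 8089 in the wild-type library.

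**Figure D3:**
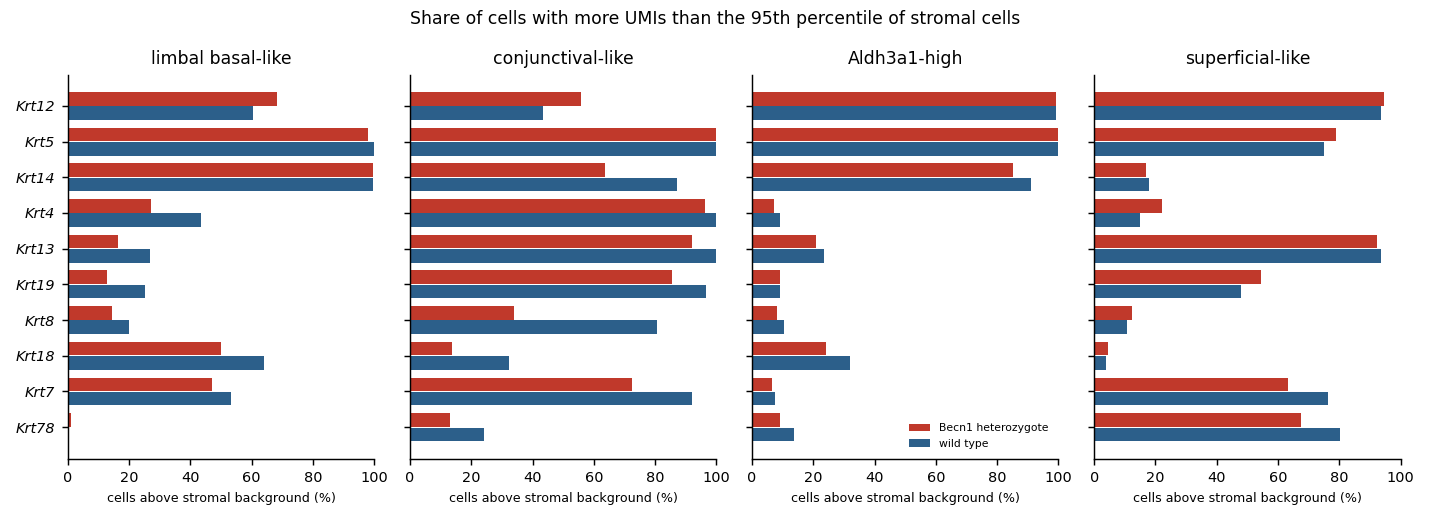
Share of cells (%, horizontal axis) with more UMIs of each keratin than the 95th percentile of stromal cells, in 4 epithelial classes, with the heterozygote bar in red above the wild-type bar in blue; the libraries differ in depth, so bars are to be read within a library. Krt14 is above the background in nearly all limbal cells (99.7% heterozygote, 99.5% wild type) and in few superficial-like cells (17.03% and 18.01%), while Krt13 is above it in most conjunctival-like and superficial-like cells.

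Keratin filaments need type I and type II chains in equal number, and the transcripts were not in equal number. All 51 keratins together took 4.17% of epithelial UMIs in the heterozygote and 4.16% in the wild type, and Krt12 alone was 51.3% and 52.2% of these. Type I UMIs were 84.1% of the keratin UMIs of the median limbal cell in the heterozygote and 83.2% in the wild type, against 81.6% and 82.3% in Aldh3a1-high cells. Krt12 was 25.4% of the limbal type I UMIs in the heterozygote and 17.3% in the wild type, against 78.9% and 79.2% in Aldh3a1-high cells, so a similar balance came from different type I genes. The type I share was lower in superficial-like cells, 61.1% in the heterozygote and 61.96% in the wild type, and in conjunctival-like cells, 63.7% and 60.5%. The middle 50% of superficial-like cells ran from 55.3% to 67.2% in the heterozygote and from 56.3% to 66.3% in the wild type. That of Aldh3a1-high cells ran from 75.1% to 85.9% in the heterozygote and from 75.98% to 85.9% in the wild type, with no overlap in either library. The 3′ tags of different genes may be captured with different efficiency, so an absolute balance cannot be read from them.

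**Figure D4:**
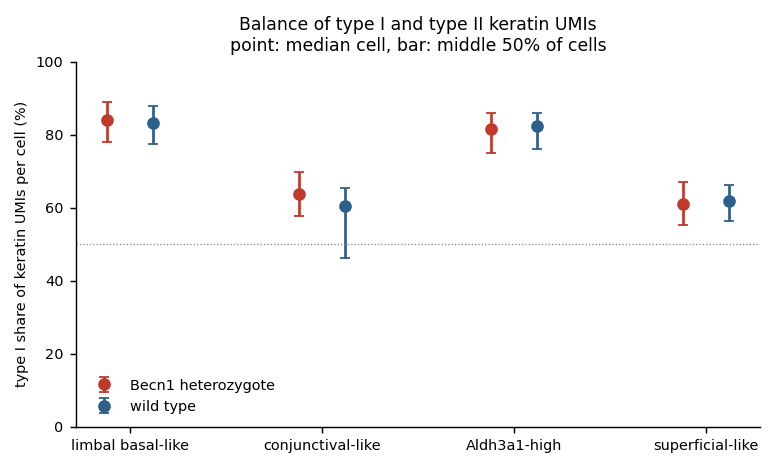
Type I share of all keratin UMIs per cell (%), shown as the median cell and the middle 50% of cells for 4 epithelial classes, with the heterozygote library in red left of the wild-type library in blue. Conjunctival-like (63.7%) and superficial-like cells (61.1%) of the heterozygote lie below limbal basal-like (84.1%) and Aldh3a1-high cells (81.6%), and so do those of the wild type.

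Of the 41 other keratin genes, 8 reached 20 CPM in the epithelium. Krt15, a type I keratin of basal cells, had 21757 CPM in heterozygote and 18465 CPM in wild-type conjunctival-like cells and 4251 CPM in heterozygote and 4879.5 CPM in wild-type limbal cells, against 1644 CPM in heterozygote and 1485 CPM in wild-type Aldh3a1-high cells. Krt6a, a type II keratin induced by stress, had 8945 CPM in heterozygote and 9846 CPM in wild-type conjunctival-like and 4394 CPM in heterozygote and 4162 CPM in wild-type superficial-like cells. Its near-identical neighbour Krt6b had 4221 CPM in heterozygote and 4151 CPM in wild-type conjunctival-like and 7054 CPM in heterozygote and 7295 CPM in wild-type superficial-like cells, and how reads were split between them is uncertain. Krt16 had 3319 CPM in heterozygote and 2444 CPM in wild-type conjunctival-like cells, and Krt17 had 2196 CPM in heterozygote and 2025 CPM in wild-type limbal cells. Krt23 had 257 CPM in heterozygote and 352 CPM in wild-type superficial-like cells, the class in which Krt7 and Krt78 were highest. Krt75 had 196 CPM in heterozygote and 193 CPM in wild-type conjunctival-like cells. Krt10, the type I keratin of keratinizing epidermis, lay between 15.1 CPM in wild-type superficial-like and 56.9 CPM in heterozygote conjunctival-like cells.

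Desmosomes and plakins tie keratin filaments to the membrane. Of 8 such genes, 5 were at least 1.25 times lower and 0 higher in limbal than in Aldh3a1-high cells of both libraries, with a list median of -0.66 against -0.02 over all genes, of which 24.1% were lower and 19.7% higher. Envoplakin (Evpl), which joins keratins to the cornified envelope, had log2 ratios of -2.82 in the heterozygote and -2.90 in the wild type. Periplakin (Ppl), its partner, had -1.88 in the heterozygote and -1.95 in the wild type for limbal cells, and 1.23 and 1.36 for superficial-like cells. In superficial-like cells 6 of the 8 were lower and 2 higher, near the 60.9% lower and 21.4% higher of all genes, and the list median of -0.91 was near the -0.79 of all genes. There dystonin (Dst), the hemidesmosomal linker of basal cells, had -3.83 in the heterozygote and -4.01 in the wild type. In conjunctival-like cells 2 were higher and 2 lower, near the 21.8% and 25.0% of all genes.

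A list of 11 transcription factors of ocular surface epithelia had 9 members of at least 20 CPM. In limbal cells 1 was higher and 4 were lower than in Aldh3a1-high cells of both libraries, against 19.7% and 24.1% of all genes. In conjunctival-like cells 2 were higher and 2 lower, near the 21.8% and 25.0% of all genes. In superficial-like cells 1 was higher and 7 were lower, against 21.4% and 60.9% of all genes. Elf3, a factor of epithelial differentiation, was the one higher in superficial-like cells, with log2 ratios of 2.13 in the heterozygote and 2.35 in the wild type, and had -1.44 and -1.35 in limbal cells. Pax6, the master factor of eye development, had -1.24 in the heterozygote and -2.06 in the wild type for limbal cells. Elf3 thus differed in the direction of Krt13 in limbal and superficial-like cells, and Pax6 in that of Krt12 in limbal cells. Pax6 was 1 of the 4 lower there, as was Klf4, with -1.16 in the heterozygote and -0.83 in the wild type. In superficial-like cells Pax6 had -1.70 in the heterozygote and -1.85 in the wild type, where the sign of Krt12 depended on the scaling.

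For 6 of the keratins the 3 genes of most similar pattern across the 15 epithelial clusters were taken from 3584 genes, by the lower of the Pearson correlations of log2(CPM + 10) in the 2 libraries. For Krt12 they were Slurp1 (r = 0.91), Bnip3l (r = 0.90) and E130218I03Rik (r = 0.90), of which Slurp1 encodes a secreted Ly6 protein and Bnip3l a mitophagy receptor. Nearest to Krt5 were Npepps (r = 0.97), Dsp (r = 0.97) and Akap9 (r = 0.97), with Dsp encoding the desmosomal protein desmoplakin. Krt4 was most like Krt15 (r = 0.94), Adam28 (r = 0.94) and Krt19 (r = 0.93). Krt13 went with Pglyrp1 (r = 0.99), 4430402I18Rik (r = 0.96) and Upp1 (r = 0.96), where Pglyrp1 encodes a peptidoglycan recognition protein. Krt8 went with Alox12e (r = 0.93), Cyp2f2 (r = 0.91) and Alox15 (r = 0.91), which include the lipoxygenase genes Alox12e and Alox15. Krt78 was most like Itgb7 (r = 0.97), Cysrt1 (r = 0.96) and Slc34a2 (r = 0.96), of which Itgb7 encodes an integrin and Slc34a2 a phosphate transporter. The points are clusters of 1 library each time and share its depth and free RNA.

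The genotypes were compared for keratin levels over the whole epithelium and within each class. Over the whole epithelium Krt8 was lower in the heterozygote, with 17.5 CPM (95% interval 16.4 to 18.6) in heterozygote and 23.1 CPM (95% interval 21.7 to 24.5) in wild-type cells, a log2 ratio of -0.40 (95% interval -0.53 to -0.27). It was the single member past 1.25-fold, 1 of 10 lower and 0 higher, against 4.98% lower and 3.09% higher of 4213 genes. Krt12 had 21416 CPM in heterozygote and 21709 CPM in wild-type cells, a log2 ratio of -0.02. Krt5 had 4544 CPM in heterozygote and 5247 CPM in wild-type cells, a log2 ratio of -0.21 (95% interval -0.22 to -0.20). Krt19 had 279.8 CPM in heterozygote and 234 CPM in wild-type cells, a log2 ratio of 0.26 (95% interval 0.22 to 0.29). The other 6 ratios lay between -0.13 (Krt78) and 0.17 (Krt7), and the median of all genes was -0.04. TMM scaling adds 0.12 to every ratio, which turns the signs of Krt12, Krt14, Krt13 and Krt18 to positive, leaves Krt8 at -0.28, within 1.25-fold, and puts Krt19 at 0.38, past it. Among epithelial cells with no Dcn UMI, 1070 heterozygote and 606 wild-type cells, Krt8 was turned to 0.15, Krt4 had 0.64 and Krt19 0.95, and Krt18 had -0.46. The whole epithelium mixes the classes, and superficial-like cells were 464 of 3483 heterozygote and 161 of 1864 wild-type cells. Krt13, at -0.03 over the whole, was lower in each class (limbal -0.62, conjunctival-like -0.24, Aldh3a1-high -0.52, superficial-like -0.23). Krt7, at 0.17 over the whole, had -0.28, -0.77, 0.06 and -0.23 in the same order. The part of the mixture was not tested.

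**Figure D5:**
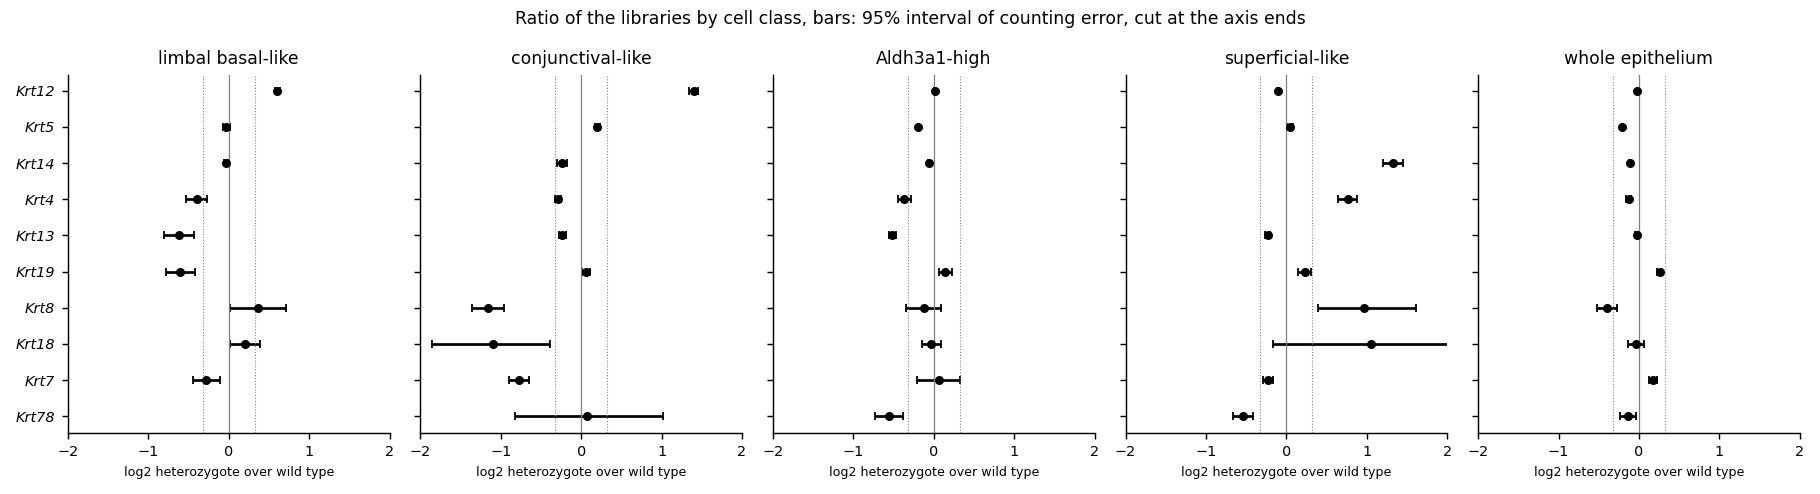
Log2 ratio of the heterozygote over the wild-type library for each keratin in 4 epithelial classes and the whole epithelium, with bars for the 95% interval of counting error, a solid line at 0 and dotted lines at 1.25-fold; Krt78 in limbal cells, with 3 UMIs and 1 UMI, is left out and bars past the axis ends are cut. In the whole epithelium Krt8 (-0.40) is past the dotted lines. Krt12 in conjunctival-like cells (1.40), Krt8 in conjunctival-like cells (-1.16) and Krt14 in superficial-like cells (1.32) lie farther out. With finer clusters, not drawn, the conjunctival-like ratio of Krt12 turned to -0.52 and that of Krt8 was -0.38. The wild-type level of Krt14 in superficial-like cells (153 CPM) is below its stromal level (172 CPM).

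In limbal basal-like cells 2 of the 10 keratins were past the fold upward in the heterozygote and 3 downward, against 5.94% of genes higher and 9.35% lower. Krt78, with 3 UMIs in the heterozygote and 1 UMI in the wild type, was given no ratio. Krt12 had 5451 CPM in heterozygote and 3591 CPM in wild-type cells, a log2 ratio of 0.60 (95% interval 0.57 to 0.63). Krt8 was also higher, with 0.36 (95% interval 0.01 to 0.72), while Krt4 was lower, with -0.40 (95% interval -0.53 to -0.27). Krt13 was lower with -0.62 and Krt19 with -0.60. The mixture of the class differed, since cluster 18, with least Krt12 and most Krt4, Krt13 and Krt19 of the pair, held 85 of 344 heterozygote and 78 of 194 wild-type cells. Within cluster 8 Krt4 had 139.8 CPM in heterozygote and 138 CPM in wild-type cells, Krt13 had 51.7 CPM in heterozygote and 56.00 CPM in wild-type cells and Krt19 had 23.3 CPM in heterozygote and 38.7 CPM in wild-type cells. Within cluster 18 Krt4 had 469 CPM in heterozygote and 519 CPM in wild-type cells, Krt13 had 217 CPM in heterozygote and 271 CPM in wild-type cells and Krt19 had 339.7 CPM in heterozygote and 342 CPM in wild-type cells. Krt8 had 22.9 CPM in heterozygote and 5.77 CPM in wild-type cells of cluster 8, the latter on 10 UMIs. In cluster 18 it had 93.8 CPM in heterozygote and 67.6 CPM in wild-type cells. Krt19 in cluster 8 and Krt13 in cluster 18 were thus also lower in the heterozygote within a cluster, past 1.25-fold for Krt19, and the part of the mixture was not tested. Krt12 was higher in the heterozygote within both clusters, as given above, but within 1.25-fold in cluster 8. In cluster 18 the median cell held 11 Krt12 UMIs in the heterozygote and 9 in the wild-type library. Both were under the stromal percentiles of 17 and 16 UMIs and near the stromal median of 8 UMIs. With coarser clusters (Leiden resolution 0.5) the limbal ratio of Krt4 turned to 0.47, that of Krt13 to 0.63 and that of Krt12 was 0.18, and with doublets kept that of Krt8 was -0.04 and that of Krt4 -0.15. Stromal cells also had more Krt12 in the heterozygote library, with a log2 ratio of 0.57, and its part in the limbal difference was not tested.

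In conjunctival-like cells 1 of the 10 keratins was past the fold upward and 3 downward, against 13.0% of genes higher and 18.6% lower. The class held 138 heterozygote and 62 wild-type cells of unequal median depth, 18336 and 33201 UMIs. Krt12 had 3795 CPM in heterozygote and 1440.2 CPM in wild-type cells, a log2 ratio of 1.40 (95% interval 1.34 to 1.46). Krt8 had 116 CPM in heterozygote and 257 CPM in wild-type cells, a log2 ratio of -1.16 (95% interval -1.36 to -0.96). With every cell thinned to 5000 UMIs Krt8 was detected in 21.01% (14.5 to 28.8) of heterozygote and 54.8% (41.7 to 67.5) of wild-type cells. Krt7 was lower, with a log2 ratio of -0.77 (95% interval -0.90 to -0.65) and thinned shares of 53.6% (44.9 to 62.1) in heterozygote and 74.2% (61.5 to 84.5) in wild-type cells. Krt18, under the 20 CPM minimum, had -1.10. Krt4 (-0.29), Krt13 (-0.24) and Krt19 (0.06), the keratins highest in this class, were within 1.25-fold. These differences depended on which cells the class held. At Leiden resolution 2.0, a setting applied to the genotypes after the values were seen, the class held 62 heterozygote and 54 wild-type cells. There Krt12 turned to a log2 ratio of -0.52 (95% interval -0.62 to -0.43), with 875 CPM in heterozygote and 1257 CPM in wild-type cells, Krt8 had -0.38 (95% interval -0.58 to -0.18) and Krt7 had -0.11 (95% interval -0.25 to 0.02), within 1.25-fold. Krt14 (-0.68) and Krt19 (0.54) were past the fold at that resolution.

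In Aldh3a1-high cells 0 of the 10 keratins were past the fold upward and 3 downward, against 1.88% of genes higher and 4.04% lower. Krt12 had a log2 ratio of 0.01. Krt4 had -0.37 (95% interval -0.45 to -0.29) and Krt13 -0.52 (95% interval -0.56 to -0.48), and Krt78, under the 20 CPM minimum, had -0.55 (95% interval -0.73 to -0.38). All 3 were highest in clusters 7 and 12 of this class, which held 274 and 148 of the heterozygote and 103 and 110 of the wild-type cells. Within cluster 7 Krt13 had 715 CPM in heterozygote and 1170.3 CPM in wild-type cells, and within cluster 12 it had 772 CPM in heterozygote and 1069 CPM in wild-type cells. Krt78 had 46.5 CPM in heterozygote and 77.8 CPM in wild-type cells in cluster 7 and 45.6 CPM in heterozygote and 67.3 CPM in wild-type cells in cluster 12, so Krt13 and Krt78 were lower in the heterozygote within both. Krt4 had 110.1 CPM in heterozygote and 199.8 CPM in wild-type cells in cluster 7 and 282 CPM in heterozygote and 272 CPM in wild-type cells in cluster 12, lower in the first and close to equal in the second. The class ratio of Krt4 was 0.04 with doublets kept, and with coarser clusters, where no conjunctival-like class formed, it was 0.86 and that of Krt13 0.10.

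In superficial-like cells 4 of the 10 keratins were past the fold upward in the heterozygote (Krt14, Krt4, Krt8 and Krt18) and 1 downward (Krt78). Krt8 and Krt18 were under the 20 CPM minimum. Among the 8 keratins past it, 2 were higher and 1 lower, against 12.8% of genes higher and 9.54% lower. Krt14 had 384 CPM in heterozygote and 153 CPM in wild-type cells, a log2 ratio of 1.32 (95% interval 1.20 to 1.45), although the median cell held 2 UMIs in both libraries. Stromal cells held Krt14 at 209.6 CPM in heterozygote and 172 CPM in wild-type cells, so the wild-type superficial-like level was below the stromal one. The part of free RNA in this difference was not tested. Krt4 had 0.76 (95% interval 0.64 to 0.88), with 0 UMIs in the median cell of both. Krt8 had 0.96 (95% interval 0.39 to 1.61) on 116 heterozygote and 30 wild-type UMIs, under the 20 CPM minimum. Krt18, with 26 UMIs in the heterozygote and 6 UMIs in the wild type, had 1.05 (95% interval -0.17 to 2.71) and was close to the stromal level. Stromal cells held Krt8 at 3.88 CPM in heterozygote and 1.59 CPM in wild-type cells, and the part of free RNA in the difference of Krt8 was not tested. Krt78 was lower, with -0.54 (95% interval -0.66 to -0.42), and within both clusters of the class, as given above. Krt12 (-0.11), Krt5 (0.05), Krt13 (-0.23), Krt7 (-0.23) and Krt19 (0.23) were within 1.25-fold. With 1 mouse per genotype none of these differences can be set against the spread between animals.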

How the data were processed

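Single cells from the cornea and limbal rim of 1 mouse per genotype were counted in 1 library each. The deposited values are raw counts of UMIs per gene and barcode, made by the authors with Cell Ranger 2.1.1 on mm10, per the submitters' processing notes. For the annotation release and the rule that called cells, nothing is given in the sources used here. The genotypes, and the removal of other eye tissue, are per the labels.

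The 10 keratins, the gene lists and the Dcn limit were chosen with earlier results of these data known, and the class limits below were settled after the clusters had been seen. Analysis used Python 3.11.15 with scanpy 1.11.5, scikit-learn 1.9.0, leidenalg 0.10.2, numpy 2.4.6, scipy 1.17.1 and matplotlib 3.10.9, and R 4.3.3 with edgeR 4.0.16 for TMM scaling alone. Scrublet scores removed the expected doublets, 0.8% per 1000 barcodes of a library (213 in the heterozygote and 51 in the wild type). Cells were clustered on 2000 variable genes without keratin, mitochondrial or ribosomal genes, over 30 principal components, 15 neighbours and Leiden resolution 1.0, which gave 24 clusters. A cluster took a class name where at least 3 markers of a list reached 20 CPM and 2 times the mean over epithelial clusters, and Aldh3a1-high needed 5000 CPM of Aldh3a1.

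Counts were summed per class and library. Intervals are 95% and exact: Poisson for levels, conditional binomial for log2 ratios (0.5 added to each count), Clopper-Pearson for shares. They cover counting error only, and with 1 library per genotype no test was possible. A gene was called past 1.25-fold, in the background counts among genes of at least 20 CPM. The script was checked on simulated counts. Named genes were the members, every other keratin of at least 20 CPM, 2 gene lists, and 3 genes of similar pattern for each of 6 members, among genes of at least 50 CPM in a cluster. Alternatives were TMM scaling, CPM without keratins, equal weight per cluster, other definitions of epithelial cells, doublets kept, other detection limits, Leiden resolutions 0.5 and 2, keratins among the clustering genes and other minimum levels, and, for genotypes within classes, the clustering, doublet and Dcn settings, added after the values were seen.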

Additional observations from a re-analysis of the deposited data

Results flagged for a closer look

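Krt4 differed between the genotypes in opposite directions in different classes, with log2 ratios of heterozygote over wild type of 0.76 in superficial-like cells, -0.40 in limbal basal-like cells and -0.37 in Aldh3a1-high cells. Krt8 did so as well, with 0.36 in limbal basal-like and 0.96 in superficial-like cells and -1.16 in conjunctival-like cells. What stood out is that each gene was past 1.25-fold upward in some class and past 1.25-fold downward in another. For Krt4 the downward ratios depended on the clusters and on the removal of doublets. Krt4 turned to 0.47 in limbal and 0.86 in Aldh3a1-high cells at Leiden resolution 0.5, and with doublets kept it was -0.15 in limbal and 0.04 in Aldh3a1-high cells. Krt8 stayed past 1.25-fold downward in conjunctival-like cells in every setting where that class formed, with -0.38 at resolution 2. In superficial-like cells, under the 20 CPM minimum, it stayed past 1.25-fold upward, between 0.49 and 0.96. The interval there at resolution 0.5 was -0.30 to 1.62. Its limbal ratio was unstable, with 1.79 at resolution 0.5 and -0.04 with doublets kept. With 1 library per genotype the difference between classes was not tested.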

How the results depend on the processing

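Between the genotypes 0 keratins were higher and 1 lower past 1.25-fold over the whole epithelium. TMM scaling gave 1 higher (Krt19) and 0 lower, equal weight per cluster gave 2 lower (Krt8 and Krt78), and cells with no Dcn UMI gave 2 higher (Krt4 and Krt19) and 1 lower (Krt18 at -0.46), with Krt8 at 0.15. Of all genes 130 were higher and 210 lower, against 1485 and 3841 with no minimum beyond 1 UMI and 37 and 54 with a minimum of 100 CPM. At Leiden resolution 0.5, where no conjunctival-like class formed, 3 keratins were higher in limbal cells instead of 6, and Krt4 had -0.15 in the heterozygote, Krt19 -2.91 in the heterozygote and -1.41 in the wild type, and Krt8 -0.62 in the wild type. In superficial-like cells at that resolution Krt4 had -0.050 in the heterozygote and -0.35 in the wild type, and Krt8 -0.54 in the heterozygote. TMM scaling left 2 keratins lower in superficial-like cells instead of 4, with Krt12 at 0.37 in the heterozygote and 0.64 in the wild type and Krt8 at 0.69 in the wild type. Keratins among the clustering genes gave Krt8 0.17 in wild-type superficial-like cells and Krt78 0.24 in heterozygote conjunctival-like cells, and resolution 2 gave that Krt78 0.30. Between the genotypes within limbal cells, 2 keratins were higher and 3 lower, against 5 and 1 at resolution 0.5, where Krt4 turned to 0.47 and Krt13 to 0.63, and 1 higher (Krt12) at resolution 2, with keratins among the clustering genes or with doublets kept, where Krt8 was at -0.045. Within conjunctival-like cells 1 was higher and 3 lower, against 2 and 4 at resolution 2, where Krt12 turned to -0.52, Krt8 was -0.38 and Krt7 -0.11. Within Aldh3a1-high cells 0 were higher and 3 lower, against 3 and 0 at resolution 0.5, with Krt4 at 0.86 and Krt13 at 0.10, and 1 higher with keratins among the clustering genes (Krt19) or with doublets kept (Krt7), where Krt4 was at 0.035. Within superficial-like cells each of these settings gave 4 or 5 higher and 1 lower (Krt78). The cause of these changes was not tested. The share of cells with both Krt12 and Krt4, 16.7% in the heterozygote and 14.3% in the wild type, was 27.5% and 26.0% unthinned, 11.1% and 10.9% above the stromal percentile, 6.32% and 5.36% at 3 UMIs or more of each, and 1.72% and 1.13% at 10 UMIs or more. The stromal percentile, and TMM, kept doublets and no Dcn limit for the classes, were chosen after seeing the data, as were the settings tried on the genotypes within classes.

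No paired analysis was possible because each genotype has 1 library, and for the same reason no replicate could be left out. Low counts limit the sparse genes: Krt78 had 3 heterozygote and 1 wild-type UMIs in limbal cells, and Krt18 had 26 and 6 in superficial-like cells. Free RNA, the unequal depth of the libraries and the 1 mouse per genotype limit the comparison of genotypes.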

Other observations

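The corneal endothelial cluster, with 36 heterozygote and 11 wild-type cells, held Krt18. Krt12 had 1053 CPM in heterozygote and 384 CPM in wild-type endothelial cells, against 1242 CPM in heterozygote and 835 CPM in wild-type stromal cells, and Krt14 had 256 CPM in heterozygote and 99.1 CPM in wild-type endothelial cells, against 209.6 CPM in heterozygote and 172 CPM in wild-type stromal cells. Krt18 had 202 CPM in heterozygote and 195 CPM in wild-type endothelial cells, above its level in limbal basal-like cells (138 and 120 CPM). Krt8 had 13.1 CPM in heterozygote and 46.4 CPM in wild-type endothelial cells. The corneal endothelium is a single layer of cells at the back of the cornea, derived from the neural crest.

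Between the genotypes, 0 of the 8 keratin linkers were higher in the heterozygote epithelium and 1 was lower, Dst with a log2 ratio of -0.36. Of the 9 measured transcription factors 0 were higher and 1 was lower, Pax6 with -0.66. Of all 4213 genes 3.09% were higher and 4.98% lower. These counts have no replicate check.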
